A study of Mus musculus with 6 samples.

Results

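The subject here is 10 genes of the MHC class I antigen-processing pathway and its transcriptional control, in fibroblasts cultured from mouse embryos (MEF): Irf1, Nlrc5, Psmb8, Psmb9, Psmb10, Tap1, Tap2, Tapbp, H2-K1 and B2m. They were taken by gene symbol and are 10 of the 21853 genes of the deposited table. Its values are FPKM (fragments divided by transcript length and by library depth) for 6 libraries of messenger RNA. All 6 came from MEF of the C57BL/6J strain in which xCT, the cystine/glutamate antiporter subunit encoded by Slc7a11, was knocked out, with a labelled age of 12 days. The 3 control libraries were of cells given water and the 3 RCE libraries of cells given red clover extract. The study asked what the extract does to iron handling and ferroptosis, an iron-dependent form of cell death. The sources used here do not state the dose, exposure time or medium, and no xCT wild-type group was analysed here. Nothing says whether libraries of a group came from separate cultures, so a p-value reflects only how much these libraries varied.

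MHC class I molecules carry peptides of proteins made inside the cell to its surface, where CD8 T cells read them. The proteasome cuts the proteins, the TAP1/TAP2 transporter pumps the peptides into the endoplasmic reticulum, and tapasin holds an empty heavy chain with beta-2-microglobulin next to the transporter until a peptide is bound. Interferon-gamma raises most of these genes, IRF1 is an activator of many of them, and NLRC5 is the transactivator of class I promoters. Fibroblasts are known to express class I at a low basal level and to raise it after interferon.

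Slc7a11 was at 0.013, 0.027 and 0.037 FPKM in control replicates 1, 2 and 3 and at 0.009, 0.017 and 0.007 in the RCE libraries, so it was near 0 in both groups. Steps between low values gave depths of 45700000 to 59000000 fragments per library. Fibroblast markers summed to 7004 to 7275 FPKM in control and 6266 to 6557 in RCE libraries, and all 12 were tested, with 2 lower (Pdgfrb by a log2 change of -0.31, adjusted p = 0.0223, and Col5a1 by -0.19, adjusted p = 0.0382, limma). The block called 8 of the 12 lower and median-of-ratios scaling 4. The calls of Pdgfrb and Col5a1 were lost without control replicate 2 or 3 or RCE replicate 2 or 3 (adjusted p = 0.057 to 0.148) and after quantile normalization (0.0565 and 0.31), that of Pdgfrb also with no filter (0.0555) and that of Col5a1 without control replicate 1 (0.087), in ranges over their alternatives of 1.14e-05 to 0.0876 and 0.000106 to 0.31. Replicate 1 of both groups stood apart from the other libraries on the second principal component, which held 36.5% of the variance, while the first (58.1%) separated the groups. Because messenger RNA was taken from whole cultures, fewer cells of a type and less RNA per cell cannot be told apart.

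The mean levels of the 10 genes spanned more than 3 orders of magnitude, shown on a log axis in the plot of FPKM by library. B2m was the highest at 439 FPKM over the 6 libraries and ranked 102 in the whole table. Tapbp (11.8 FPKM) and H2-K1 (11.5 FPKM) came next, and their ranges over libraries overlapped. Psmb10 (5.63 FPKM), Tap1 (4.65) and Tap2 (4.2) formed a group whose neighbours also overlapped, although Psmb10 was above Tap1 in 6 of 6 libraries. Irf1 followed at 1.31 FPKM, apart from its neighbours in every library. Psmb8 (0.179 FPKM), Nlrc5 (0.149) and Psmb9 (0.098) were the lowest, with overlapping ranges.

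**Figure D1:**
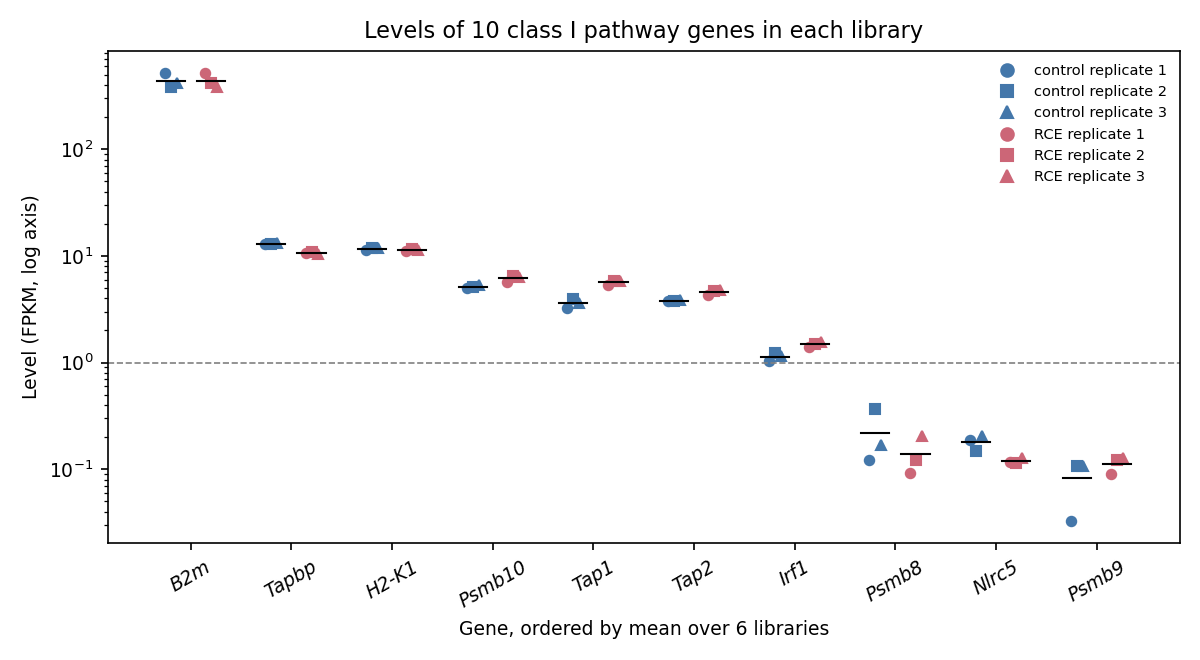
FPKM of the 10 genes in each library on a log axis, ordered by the mean over 6 libraries; blue points are control and red points RCE libraries, symbols give the replicate number, horizontal bars are group means and the dashed line is the 1 FPKM minimum for testing. B2m lies near 439 FPKM, and Psmb8, Nlrc5 and Psmb9 lie under the line in every library.

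Between the groups, 7 of the 10 genes had a mean of at least 1 FPKM and were tested, and each of these was above 1 FPKM in all 6 libraries. Tap1, Tap2, Psmb10 and Irf1 were higher and Tapbp was lower in RCE libraries, with adjusted p below 0.05 in limma over all 10870 genes tested. H2-K1 and B2m did not pass the test, and Psmb8, Psmb9 and Nlrc5 were not tested. Of all tested genes, 24.3% passed, 17.6% as higher and 6.77% as lower. Changes are given as log2 differences of FPKM + 1, RCE minus control, which understate the change of low genes. The median change of the 7 tested genes was 0.22, against 0.08 over all tested genes. The 10 genes were chosen with earlier results of these data known, so comparisons of the set with all genes are descriptions and not tests. The 2 groups did not overlap for 5 of the 7 tested genes, 4 higher and 1 lower in RCE libraries, against 42.2% of all tested genes, 31.2% higher and 10.9% lower. A fit with the replicate number as a block made the same 4 higher and 1 lower calls, where it called 62.5% of all tested genes, 46.6% as higher and 15.9% as lower. After median-of-ratios scaling of the libraries 2 of the 10 genes were called higher (Tap1 and Irf1) and 1 lower (Tapbp), where 18.4% of all tested genes passed, 8.4% as higher and 9.95% as lower. That scaling moved the share of higher genes among all calls from 72.2% to 45.8%.

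**Figure D2:**
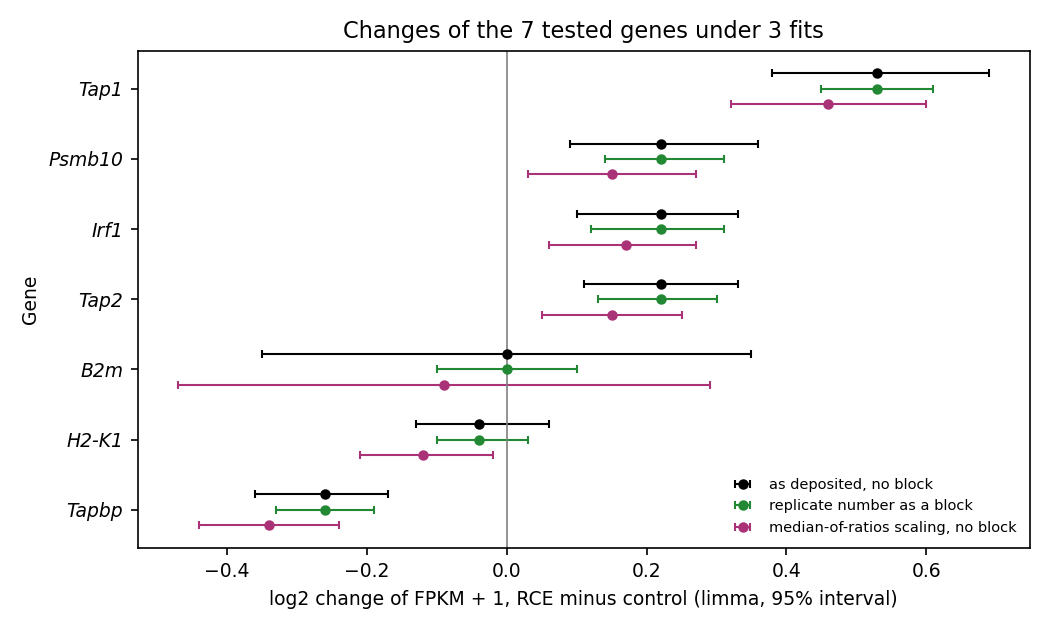
Log2 change of FPKM + 1, RCE minus control, of the 7 tested genes with 95% intervals from limma, under the deposited scaling, with replicate number as a block and with median-of-ratios scaling. Tap1 lies near 0.5 and Tapbp between -0.34 and -0.26 in all 3 fits, Psmb10, Irf1 and Tap2 lie at 0.22 and nearer 0 with median-of-ratios scaling, and the B2m interval includes 0 in each.

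Transcriptional control came first. Irf1 encodes interferon regulatory factor 1, a short-lived activator that binds interferon-stimulated response elements (ISRE), and lies at chr11:53770014-53778374 on the plus strand (ENSMUSG00000018899, build mm10). Its promoter is shown because Irf1 is the upstream regulator in the set and one of the higher genes. The RefSeq window of 250 bases before the Irf1 start (GRCm38.p6, chr11:53769764-53770013, plus strand) is printed 5′ to 3′, and capitals mark every motif match.
Irf1: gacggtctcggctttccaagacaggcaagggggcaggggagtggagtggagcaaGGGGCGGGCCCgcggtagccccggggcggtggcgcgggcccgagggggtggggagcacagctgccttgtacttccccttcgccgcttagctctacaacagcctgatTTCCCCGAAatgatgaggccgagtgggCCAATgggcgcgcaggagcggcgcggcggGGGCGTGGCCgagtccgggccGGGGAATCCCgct
Motifs were searched on both strands, with overlapping matches counted: the ISRE core (GAAA, any 2 bases, GAAA), the STAT element GAS (TTC, any 3 bases, GAA), an NF-kappaB pattern (GGG, any 5 bases, CC) and the Y box or inverted CCAAT box (ATTGG). In 32851 RefSeq windows of 250 bases, 2.98% held the ISRE core, 7.02% the GAS, 45.8% the NF-kappaB pattern and 33.8% the Y box. The printed Irf1 window held a GAS from -90 to -82 relative to the start, a Y box from -63 to -59 and 6 NF-kappaB matches counted on both strands. The NF-kappaB matches lay within -196 to -186, at -34 to -25 and at -13 to -4 next to the start, and the first and last of these places were counted more than once. A further RefSeq window of Irf1 (chr11:53770223-53770472, plus strand), before another start, held 0 matches to each of these motifs. Motif matches describe letters and not occupied sites.

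Irf1 was at 1.041, 1.216 and 1.154 FPKM in control replicates 1, 2 and 3 and at 1.398, 1.503 and 1.544 in the RCE libraries. Every RCE library was above every control library. The mean went from 1.14 ± 0.0887 to 1.48 ± 0.0753 FPKM (SD, n = 3 each), 1.30 times the control, with a log2 change of 0.22 (SE 0.047, 95% interval 0.10 to 0.33, adjusted p = 0.0214, limma). These values rest on about 120.6 to 189.5 fragments per library at the longest transcript. The call was lost with quantile normalization (0.10, adjusted p = 0.18) and without control replicate 3, RCE replicate 2 or RCE replicate 3 (adjusted p = 0.0679, 0.0872 and 0.0804), in a range over its alternatives of 0.000423 to 0.18. The exons of Irf1 share 135 bases with the antisense gene model Gm17334, and the sources used here do not state whether counting used strand.

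Nlrc5 (chr8:94434356-94527272, plus strand, ENSMUSG00000074151) was at a level too low to test. Its values were 0.186, 0.147 and 0.204 FPKM in control and 0.116, 0.115 and 0.127 FPKM in RCE libraries, about 40.2 to 76.4 fragments per library. Every RCE library was below every control library, with means of 0.179 ± 0.0291 and 0.119 ± 0.00666 FPKM (SD, n = 3 each). With no filter on low values limma gave a log2 change of -0.07 (SE 0.02) and an adjusted p of 0.0892.

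A list of 26 transcriptional regulators of class I, which repeated Irf1 and Nlrc5, was chosen with earlier results of these data known. Of these genes 22 were tested, 5 were higher (Irf1 included) and 4 lower, with a median change of 0.08. Ezh2, the histone methyltransferase of the repressive polycomb complex PRC2, had the smallest p and was at 3.73 ± 0.0718 FPKM in control and 5.67 ± 0.37 in RCE libraries (log2 change 0.49, adjusted p = 0.00191). Stat3, a STAT factor of interleukin-6 signalling, was lower (20.4 to 16.0 FPKM, log2 change -0.33, adjusted p = 0.00294). So was Relb, a subunit of the non-canonical NF-kappaB pathway (6.36 to 4.21 FPKM, log2 change -0.50, adjusted p = 0.00588). Creb1, a cAMP-response factor that binds the X2 box of class I promoters, was higher (6.00 to 7.14 FPKM, log2 change 0.22, adjusted p = 0.0122). Its call was lost without control replicate 2 or RCE replicate 2 or 3 (adjusted p = 0.0548, 0.06 and 0.055) and after quantile normalization (0.13, adjusted p = 0.0765), in a range over its alternatives of 0.000236 to 0.0765. Beyond the 4 with the smallest p, Rfx5, the X-box factor with which NLRC5 assembles, was chosen after its values were seen: it was higher (2.37 to 3.06 FPKM, log2 change 0.27, adjusted p = 0.022), and its adjusted p was 0.0822 after median-of-ratios scaling, 0.082, 0.0784 and 0.0631 without control replicate 2, control replicate 3 or RCE replicate 2, and 0.00019 to 0.157 over its alternatives. The block gave 10 higher and 7 lower of the 22, and median-of-ratios scaling 3 and 5.

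Interferon ligands were at the floor of the table. Ifng, Ifnb1, Ifna4, Ifnl2, Ifnl3 and Ifnk were listed at 0 in all 6 libraries. Of the 12 tested genes among 21 ligands, receptors and signalling parts, 2 were higher and 1 lower, with a median change of 0.05. The block gave 4 higher and 4 lower, and median-of-ratios scaling 0 higher and 2 lower. Ifngr1, the ligand-binding chain of the interferon-gamma receptor, was at 14.2 FPKM in control and 16.2 in RCE libraries (log2 change 0.17, adjusted p = 0.0257), and Tyk2, a kinase of the interferon-alpha receptor, at 4.2 and 4.75 FPKM (0.14, adjusted p = 0.0402). Socs3, a feedback inhibitor of cytokine receptors, was lower (2.83 to 1.79 FPKM, log2 change -0.46, adjusted p = 0.00526). Both Ifngr1 and Tyk2 missed the threshold after median-of-ratios scaling, at adjusted p = 0.22 and 0.276 (in ranges over their alternatives of 0.000169 to 0.22 and 0.00366 to 0.536). The call of Ifngr1 was also lost without control replicate 2 or 3 or RCE replicate 2 or 3 (0.0773 to 0.113), and that of Tyk2 without any 1 library (0.0667 to 0.141).

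Targets of IRF1 and interferon-gamma outside class I were mostly below the level for testing: 7 of 27 in the table were tested, 2 were higher and 0 lower. The block gave 3 higher and 1 lower, and median-of-ratios scaling 2 and 0. Irgm1, an immunity-related GTPase, was at 15.178, 16.493 and 16.190 FPKM in control and 20.122, 19.961 and 21.116 in RCE libraries (log2 change 0.34, adjusted p = 0.00564). Trim21, a cytosolic antibody receptor and ubiquitin ligase, was at 1.28 ± 0.128 FPKM in control and 1.79 ± 0.0862 in RCE libraries (log2 change 0.30, adjusted p = 0.0118), and its adjusted p without RCE replicate 2 was 0.0557, in a range over its alternatives of 0.000113 to 0.0629. The guanylate-binding protein gene Gbp2 and the PD-L1 gene Cd274, both chosen after their values were seen, had log2 changes of 0.02 (adjusted p = 0.831) and -0.05 (adjusted p = 0.491).

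The catalytic subunits of the immunoproteasome replace those of the constitutive proteasome: PSMB8 for PSMB5, PSMB9 for PSMB6 and PSMB10 for PSMB7. Psmb10 (chr8:105935735-105938444, minus strand, ENSMUSG00000031897) was at 4.966, 5.100 and 5.295 FPKM in control replicates 1, 2 and 3 and at 5.674, 6.463 and 6.305 in the RCE libraries. The groups did not overlap. The mean was 5.12 ± 0.165 in control and 6.15 ± 0.417 in RCE libraries, 1.20 times as high, with a log2 change of 0.22 (SE 0.055, 95% interval 0.09 to 0.36, adjusted p = 0.032). The call was lost with no filter, median-of-ratios scaling or quantile normalization (adjusted p = 0.0676, 0.0881 and 0.127), and without any 1 library other than RCE replicate 1 (0.0727 to 0.12), in a range over its alternatives of 0.000122 to 0.127.

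Psmb8 (chr17:34197721-34201454, plus strand, ENSMUSG00000024338) was at 0.122, 0.363 and 0.170 FPKM in control and 0.092, 0.122 and 0.203 in RCE libraries. Psmb9 (chr17:34181987-34187764, minus strand, ENSMUSG00000096727) was at 0.033, 0.108 and 0.108 FPKM in control and 0.091, 0.121 and 0.127 in RCE libraries. The groups overlapped for both, and a library held only about 8.0 to 34.3 fragments of Psmb8 and 5.2 to 20.6 of Psmb9. Neither was tested. With no filter on low values the adjusted p was 0.665 for Psmb8 and 0.657 for Psmb9, but the added 1 FPKM is larger than these values and shrinks any change, so this fit says little about them.

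Psmb5, Psmb6 and Psmb7 were far more abundant, at 95.6 ± 15.4, 112 ± 13.1 and 76.1 ± 14.4 FPKM in control and 99.0 ± 12.6, 116 ± 9.81 and 78.4 ± 15.9 in RCE libraries. Their log2 changes were 0.05, 0.05 and 0.04 (adjusted p = 0.825, 0.794 and 0.91), each turned to below 0 with median-of-ratios scaling, and replicate 1 was the lowest of its group for all 3. Psmb8 was therefore 0.108 to 0.35% of Psmb5 and Psmb9 0.0339 to 0.104% of Psmb6 over the 6 libraries. Psmb10 stood apart from the other immunoproteasome subunits at 6.08 to 9.45% of Psmb7. Its ratio was higher in the RCE library of each same-numbered pair, 8.31 and 9.45% in replicate 1, 6.26 and 7.34% in replicate 2, and 6.08 and 7.23% in replicate 3. The 2-sided exact permutation test gave p = 0.3 for each of the 3 ratios (adjusted p = 0.3), where 0.1 is the smallest p that 3 against 3 libraries allow, so this design could not reach the threshold. Log2 ratios differed by -0.63 for Psmb8, 0.57 for Psmb9 and 0.22 for Psmb10, and the Psmb9 value was 0.10 without control replicate 1.

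**Figure D3:**
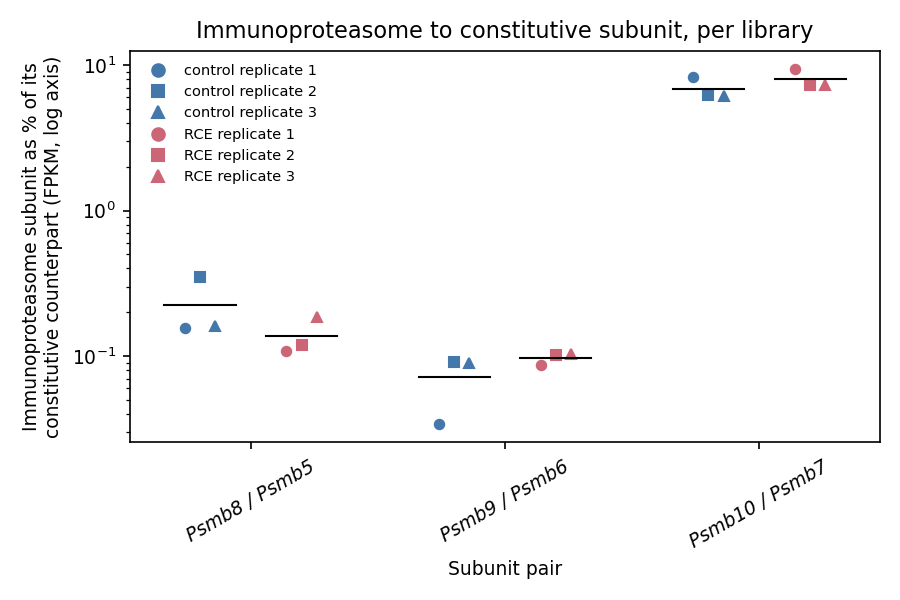
FPKM of each immunoproteasome subunit gene as a percentage of its constitutive counterpart, per library, on a log axis; symbols give the replicate number and bars the arithmetic mean of the group. Psmb10 lies at 6.08 to 9.45% of Psmb7, while Psmb8 and Psmb9 lie at or under 0.35% of Psmb5 and Psmb6.

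Over the list of 9 tested catalytic subunits and regulators, Psmb10 was the 1 called, 3 were higher with the block and 0 after median-of-ratios scaling. The other 11 subunits of the 20S core were all tested and 0 passed in limma. None had an unadjusted p under 0.05 either, 8 were called higher with the replicate block and 0 with median-of-ratios scaling. Their median change was 0.08, the same as over all tested genes.

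The transporter genes differed in the size of their change. Tap1 (chr17:34187553-34197225, plus strand, ENSMUSG00000037321) was at 3.279, 3.940 and 3.653 FPKM in control replicates 1, 2 and 3 and at 5.371, 5.871 and 5.780 in the RCE libraries. The lowest RCE library was well above the highest control library. The mean rose from 3.62 ± 0.331 to 5.67 ± 0.266 FPKM (SD, n = 3 each), 1.57 times the control, with a log2 change of 0.53 (SE 0.065, 95% interval 0.38 to 0.69, adjusted p = 0.00329). Tap1 passed in all 16 alternative fits in which it was tested, with changes of 0.43 to 0.64.

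Tap2 (chr17:34203527-34216321, plus strand, ENSMUSG00000024339) was at 3.796, 3.781 and 3.845 FPKM in control and 4.324, 4.647 and 4.805 in RCE libraries. The groups did not overlap. The mean went from 3.81 ± 0.0335 to 4.59 ± 0.245 FPKM, 1.21 times the control, with a log2 change of 0.22 (SE 0.045, 95% interval 0.11 to 0.33, adjusted p = 0.0183). The call was lost with median-of-ratios scaling (0.15, adjusted p = 0.0546), quantile normalization (0.132) and without control replicate 2 or 3 or RCE replicate 2 or 3 (0.0705, 0.0632, 0.0841 and 0.0705), in a range over its alternatives of 0.000137 to 0.132. The ratio of Tap1 to Tap2 in FPKM, computed after their values were seen, was 0.864 to 1.04 in control and 1.20 to 1.26 in RCE libraries. Near balance in the control cells, the pair was thus weighted to Tap1 in all 3 RCE libraries. The exons of Tap2 share 533 bases with Gm15821 and 165 with Gm20496, gene models on the opposite strand. Without stranded counting, some fragments given to Tap2 could belong to these.

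Tap1 and Psmb9 are neighbours transcribed away from each other. Their RefSeq starts at chr17 positions 34187556 and 34187330 leave 225 bases between them, which held 5 NF-kappaB matches, 1 Y box and 0 matches to the ISRE core or the GAS. In the annotation that gave the gene coordinates, all 225 bases lie in exons of Psmb9 and 3 in exons of Tap1, so there the stretch is not a gap between the genes. Of all RefSeq windows cut to the same length, 43.7% held the NF-kappaB pattern, 31.6% the Y box, 2.62% the ISRE core and 6.23% the GAS. The 2 genes differed in level, with 33.8 to 99.4 times as much Tap1 as Psmb9 in control and 45.5 to 59.0 times in RCE libraries in FPKM. Their exons share 212 bases on opposite strands in the annotation, so without stranded counting some fragments could belong to either.

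Tapbp (chr17:33915899-33929292, plus strand, ENSMUSG00000024308), the gene of tapasin, was the 1 tested gene of the 10 that fell. It was at 12.805, 12.851 and 13.110 FPKM in control and 10.617, 10.869 and 10.355 in RCE libraries. All 3 RCE libraries were below all 3 controls. The mean fell from 12.9 ± 0.164 to 10.6 ± 0.257 FPKM, 0.821 times the control, with a log2 change of -0.26 (SE 0.039, 95% interval -0.36 to -0.17, adjusted p = 0.00627), and it passed in all 17 alternative fits. Relative to Tapbp, Tap1 was at a ratio of 0.256 to 0.307 in control and 0.506 to 0.558 in RCE libraries, computed after the values were seen. In the annotation the exons of Tapbp share 149 bases with Zbtb22 on the same strand and 904 with the antisense gene model Gm19412. Zbtb22 had a log2 change of 0.03 (adjusted p = 0.65).

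Of the 14 genes of peptide trimming, transport, loading and chaperoning that were tested, Tap1 and Tap2 were the 2 higher and Tapbp the 1 lower, with a median of 0.06. The lectin chaperone gene Calr and the thiol oxidoreductase gene Pdia3, which sit in the same loading complex and were named after their values were seen, had log2 changes of -0.05 (adjusted p = 0.536) and 0.02 (adjusted p = 0.812). The block gave 7 higher and 1 lower, and median-of-ratios scaling 1 and 1.

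The heavy chain H2-K1 and its light chain B2m did not pass the test. H2-K1 lies at chr17:33996017-34000347 on the minus strand (ENSMUSG00000061232) and B2m at chr2:122147686-122153083 on the plus strand (ENSMUSG00000060802). Their RefSeq windows (GRCm38.p6, chr17:34000348-34000597, minus strand, and chr2:122147437-122147685, plus strand) are shown against that of Irf1, 5′ to 3′ with the motif matches in capitals, because they are the class I chains themselves. The B2m window is printed without its last base, which the annotation places in the B2m exon.
H2-K1: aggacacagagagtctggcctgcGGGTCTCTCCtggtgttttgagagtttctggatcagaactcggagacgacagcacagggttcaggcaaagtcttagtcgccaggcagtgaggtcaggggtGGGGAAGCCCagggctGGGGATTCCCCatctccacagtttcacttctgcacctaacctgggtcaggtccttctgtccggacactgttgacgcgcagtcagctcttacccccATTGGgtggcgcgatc
B2m: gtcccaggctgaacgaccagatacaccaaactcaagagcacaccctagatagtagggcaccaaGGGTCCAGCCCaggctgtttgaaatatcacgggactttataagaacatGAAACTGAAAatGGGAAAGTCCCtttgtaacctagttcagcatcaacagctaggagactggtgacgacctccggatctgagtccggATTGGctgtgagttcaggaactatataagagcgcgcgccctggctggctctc
The B2m window held an ISRE core from -139 to -130, the 1 such match among the windows of 8 of the 10 genes that had one (Tap2 and Nlrc5 had no entry). Only exact matches to the core were counted, so a window without one, as that of H2-K1, may still hold a variant of the element. The Tap1, Psmb8 and Psmb9 windows lie wholly in annotated exons. In the Tapbp window 146 bases, and in the Psmb10 window 52, lie in exons of the gene itself. H2-K1 held 7 NF-kappaB matches and B2m 4, counted on both strands, and each held a Y box within 60 bases of the start. The matches of H2-K1 lay at -227 to -218, -127 to -118 and -111 to -101, and those of B2m at -187 to -177 and -127 to -117. The counts are thus not of separate places, and the share of all windows given above is of those with at least 1 match. A further RefSeq window of H2-K1 (chr17:34000334-34000583, minus strand), which overlaps the printed one, held 7 NF-kappaB matches and 2 Y boxes.

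H2-K1 was at 11.321, 11.851 and 11.874 FPKM in control and 11.217, 11.578 and 11.328 in RCE libraries. The groups overlapped. The means were 11.7 ± 0.313 and 11.4 ± 0.185 FPKM, with a log2 change of -0.04 (95% interval -0.13 to 0.06, adjusted p = 0.573). The replicate block together with median-of-ratios scaling called it lower (-0.12, adjusted p = 0.0102), in a range over its alternatives of 0.0102 to 0.782. In the annotation 8.11% of its 50-base stretches also occur in other genes, 6.52% in H2-D1, so its level depends on how shared fragments were assigned.

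B2m was at 516.357, 385.012 and 416.119 FPKM in control replicates 1, 2 and 3 and at 512.322, 419.658 and 383.819 in the RCE libraries. Replicate 1 was the highest of both groups. The means were 439 ± 68.6 and 439 ± 66.3 FPKM, with a log2 change of -0.00 (95% interval -0.35 to 0.35, adjusted p = 0.997). Within same-numbered pairs the change was -0.01, 0.12 and -0.12 for replicates 1, 2 and 3. The ratio of B2m to H2-K1 in FPKM was 32.5 to 45.6 in control and 33.9 to 45.7 in RCE libraries.

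In the list of class I heavy chains and class I like genes, which also held B2m and repeated H2-K1, 9 of the 22 genes in the table were tested and 1 passed. H2-T23, which encodes the non-classical molecule Qa-1, was at 8.319, 10.827 and 10.380 FPKM in control and 6.926, 7.161 and 7.576 in RCE libraries. The groups did not overlap, and control replicate 1 was the control nearest to the RCE libraries. The means were 9.84 ± 1.34 and 7.22 ± 0.329 FPKM, with a log2 change of -0.39 (SE 0.095, adjusted p = 0.0296). The call was lost with no filter (adjusted p = 0.0902) and without any 1 library other than control replicate 1 (0.0556 to 0.103), in a range over its alternatives of 3.87e-05 to 0.103. The second classical heavy chain gene, H2-D1, named after its values were seen, was at 21.7 ± 0.713 and 23.2 ± 0.493 FPKM, with a log2 change of 0.09 (adjusted p = 0.177), and was called higher with the replicate block (adjusted p = 0.0249), in a range over its alternatives of 0.0249 to 0.922. The block gave 3 higher and 1 lower of the 9, and median-of-ratios scaling 0 and 1.

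**Figure D4:**
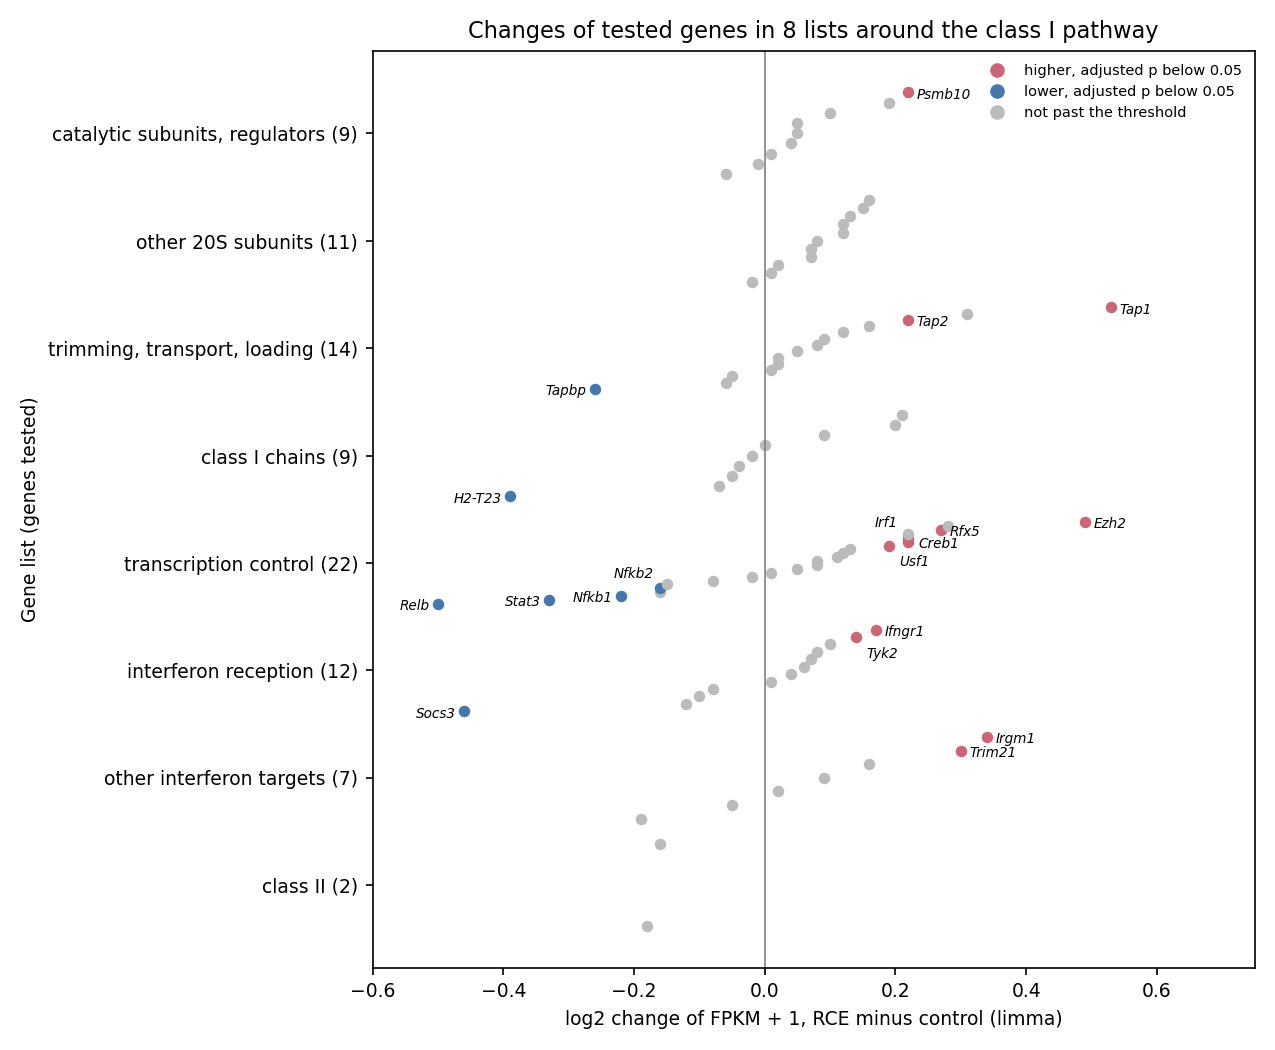
Log2 change of FPKM + 1, RCE minus control, of each tested gene in 8 lists around the class I pathway; red points were higher and blue points lower with adjusted p below 0.05 in limma. Tap1 at 0.53 and Ezh2 at 0.49 lie farthest to the right, Relb at -0.50 and Socs3 at -0.46 farthest to the left, and no point of the other 20S subunits passed.

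Class II presentation genes were near the floor: 2 of 12 were tested, 0 passed, 1 had an unadjusted p under 0.05, 2 were lower with the replicate block and 1 with median-of-ratios scaling. H2-DMa, which edits class II peptides and was named after its values were seen, was at 1.29 FPKM in control and 1.04 in RCE libraries (log2 change -0.16, adjusted p = 0.0516). Macrophages also express class I and II genes, and their 12 markers, all found in the table, summed to 18.6 to 19.5 FPKM in control and 13.9 to 15.9 FPKM in RCE libraries. Of the 3 tested markers 1 was lower, Lyz2 (11.6 to 8.31 FPKM, log2 change -0.43, adjusted p = 0.00468). The monocyte receptor gene Cd14 had a log2 change of 0.17 (1.41 ± 0.126 FPKM in control and 1.72 ± 0.301 in RCE libraries, adjusted p = 0.193) and was called higher by the block alone of these 3 fits (adjusted p = 0.0119 with the block, 0.371 after median-of-ratios scaling), so the markers did not all move one way. Of markers too low to test, the pan-leukocyte marker Ptprc was at 0.051 to 0.079 FPKM in control and 0.030 to 0.045 in RCE libraries. Csf1r was at 0.520 to 0.711 FPKM in control and 0.418 to 0.492 in RCE libraries. C1qa was at 0.745 to 0.855 and 0.358 to 0.497 FPKM, and C1qb at 0.949 to 1.021 and 0.442 to 0.701 FPKM. For each of these and for Lyz2 every RCE library was below every control library, while the groups overlapped for Cd14 and the macrophage markers not named here. The part of these markers in the class I results was not tested. Lymphoid markers summed to at most 0.094 FPKM, with Cd8a, Ncr1 and Klrb1c listed at 0 in all libraries, and dendritic markers to 0.614 to 0.739 FPKM, with Xcr1 and Clec9a at 0. Endothelial markers summed to 3.20 to 3.56 FPKM in control and 2.79 to 3.06 in RCE libraries, with 1 of 2 tested lower (Emcn, log2 change -0.19, adjusted p = 0.0257, and 0.0578 to 0.0934 without control replicate 1 or 3 or RCE replicate 2 or 3). Epithelial, erythroid and pluripotency markers summed to no more than 3.11, 0.68 and 0.402 FPKM in any library.

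Tapbp, H2-K1, Psmb9, Tap1, Psmb8 and Tap2 lie in this order within 300.4 kb of chromosome 17, and all table genes of the segment were compared, a choice made after values were seen. Of its 23 genes 17 were tested, and Tap1, Tap2 and Tapbp were the 3 called. Over all tested genes 24.3% passed, 17.6% as higher and 6.77% as lower. Of the 13 other tested genes in the segment 0 passed in limma, 3 had an unadjusted p under 0.05, the block gave 4 higher and 2 lower, and median-of-ratios scaling 1 lower (H2-DMa). The fall of Tapbp and the rise of Tap1 and Tap2, whose positions set the ends, stood at opposite ends of the segment.

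**Figure D5:**
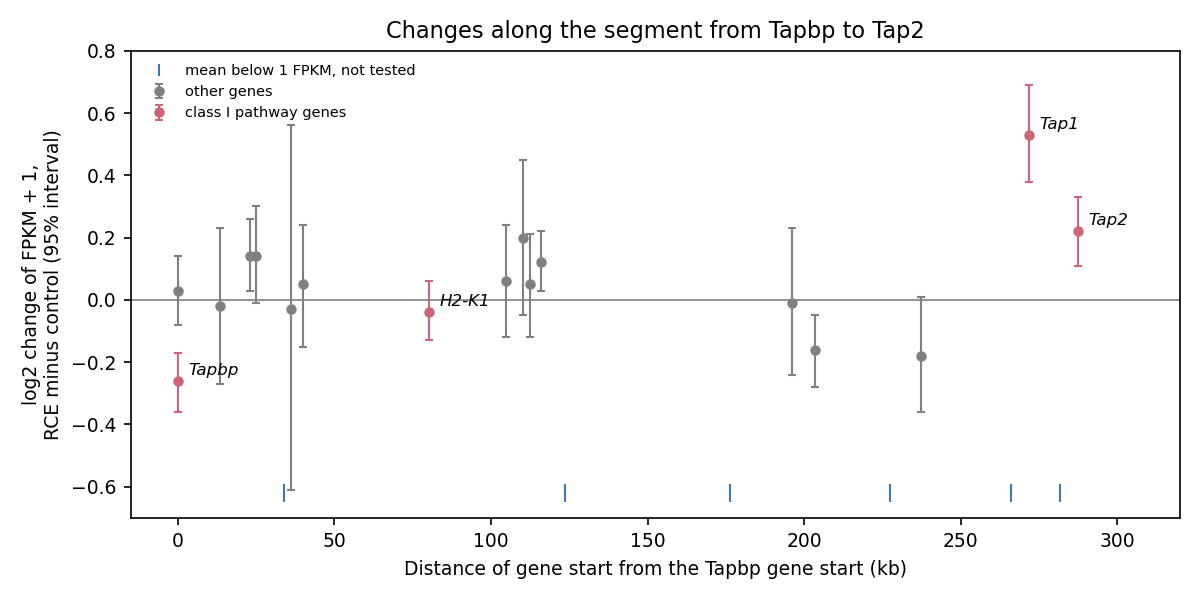
Log2 change of FPKM + 1, RCE minus control, with 95% intervals from limma, against the distance in kb of each gene's leftmost base from that of Tapbp, for all table genes up to Tap2; red points are genes of the class I set and ticks mark genes with a mean below 1 FPKM. Tapbp lies at -0.26 at the left end, and Tap1 at 0.53 and Tap2 at 0.22 at the right end.

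For Irf1 and Tap1 the 3 genes with the nearest profile over the 6 libraries were found by Euclidean distance of mean-centred log2(FPKM + 1), leaving out gene model names. Nearest to Irf1 were Krtcap2 (distance 0.0203), Cdc37l1 (0.0267) and Nsd2 (0.0296), with log2 changes of 0.21, 0.20 and 0.23. Nearest to Tap1 were Trim59 (distance 0.0423), Pgpep1 (0.0888) and Lurap1l (0.0917), with log2 changes of 0.52, 0.53 and 0.59. All 6 were higher in RCE libraries by limma, as a likeness to 2 higher genes fixes, and none belongs to the lists. The calls of Krtcap2 and Cdc37l1 were lost without any 1 library other than RCE replicate 1, and that of Nsd2 without control replicate 3 or RCE replicate 2 or 3 (adjusted p = 0.0577 to 0.122 over the 3 genes). Krtcap2 and Cdc37l1 also missed the threshold after median-of-ratios scaling (0.0985 and 0.0967), Cdc37l1 with no filter (0.0703), and Cdc37l1 and Nsd2 after quantile normalization (0.189 and 0.0812), in ranges over their alternatives of 0.000252 to 0.107, 0.000625 to 0.189 and 0.000167 to 0.0812.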

How the data were processed

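Messenger RNA of 6 libraries of xCT-knockout MEF (TRIzol and a TruSeq Stranded mRNA library, per the labels) was grouped by label as control (n = 3) or RCE (n = 3). The deposited values are FPKM, per the submitters' processing notes and because low values step as FPKM do. Those notes name mm10, STAR 2.5.4, Cufflinks and Cuffdiff 2.2.1, and give no role; the sources used here do not state annotation, strand use or any scaling. FPKM are relative to library and transcript length, so a gene that takes more of a library lowers the others. All 21853 gene identifiers were found in GENCODE M21 of the same build, which gave coordinates. For 24 symbols on more than 1 row, the highest row by mean was kept.

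Depth was recovered from values of 0.02 to 0.5 FPKM of genes with 1 transcript of at most 3000 bases, where 503 to 540 values per library came out as whole fragments within 0.1. Fragment numbers per gene use the longest transcript, are approximate and cover counting error only.

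The comparison of RCE with control used limma 3.58.1 under R 4.3.3 on log2(FPKM + 1), a trend in the prior variance and genes whose mean reached 1 FPKM, 2-sided, with Benjamini-Hochberg adjustment over 10870 genes, a threshold of 0.05 and no block. An adjusted p comes from this fit unless its sentence names another setting, in which case limma was refitted over the genes of that setting; those of the 3 subunit ratios come from exact permutation tests (SciPy 1.17.1). On simulated data of the same size the limma fit recovered 67.3% of 98 changes of 0.5 and 95.1% of 102 changes of 1 (log2). It called 11 of 10670 unchanged genes. The simulated noise was drawn independently for each library, whereas deviations of the real same-numbered libraries correlated. No change smaller than 0.5 was simulated. These shares are therefore not error rates of the real comparison.

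The labels share replicate numbers without saying what a number stands for. Deviations from group means correlated at 0.918, 0.62 and 0.681 for pairs 1, 2 and 3, so same-numbered libraries were treated as pairs in the blocked fit; control replicate 2 correlated more with RCE replicate 3 (0.771) and control replicate 3 with RCE replicate 2 (0.724), so the data do not order pairs 2 and 3.

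The 10 genes and all lists were chosen with earlier results of these data known. The rule named the 10 genes, up to 4 called genes with the smallest p per list, defining markers at 0, Psmb5 to Psmb7 and the nearest profiles. Promoters and motifs are from RefSeq windows (GRCm38.p6), found for 8 of the 10 genes. Macrophage marker genes other than Lyz2, overlapping genes, gene ratios and genes marked in the text were named after their values were seen. Alternatives were other pseudocounts (0.1, 0.5) and filters (none, 5 FPKM), 2 other scalings, no trend, the replicate block, array weights and left-out libraries.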

Additional observations from a re-analysis of the deposited data

How the results depend on the processing

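The number of genes called was 2646 of 10870. It was 1352 with a mean of at least 5 FPKM, 1642 with quantile normalization, 6790 with the replicate block, 5884 with the block and median-of-ratios scaling, 6778 with array weights (whose estimate did not converge), 5844 without replicate 1 of both groups, and 1079 (without RCE replicate 2) to 2774 (without RCE replicate 1) with 1 library left out. Without control replicates 2 or 3 or RCE replicate 3 it was 1355, 1288 and 1360. Under the deposited scaling the replicate block called the same 4 of the 10 genes higher and the same 1 lower, so the pairing changed no call there. After median-of-ratios scaling it did. Without and with the block, adjusted p in limma was 0.0546 and 0.00977 for Tap2 and 0.0881 and 0.00916 for Psmb10, both then called higher. For H2-K1, then called lower, it was 0.0849 and 0.0102. Permutation within same-numbered pairs gave the subunit ratios a p of 0.5, 0.25 and 0.25 (smallest possible 0.25). Genes of the 10 called higher, 4 as reported, were 1 with a mean of at least 5 FPKM (Psmb10, with Tap1, Tap2 and Irf1 not tested), 2 after median-of-ratios scaling (4 with the block added), 1 after quantile normalization (Tap1), and 1 to 4 with 1 library left out. Genes called lower, 1 as reported, were 2 with the block and median-of-ratios scaling. B2m, not called, was above 0 with quantile normalization (0.002), array weights (0.047), without control replicate 1 (0.12), RCE replicate 2 (0.025) or RCE replicate 3 (0.09) and without replicate 1 of both groups (0.004). Psmb5, Psmb6 and Psmb7, not called, were below 0 with median-of-ratios scaling with or without the block (-0.032, -0.041 and -0.046) and without control replicate 1 (-0.086, -0.054 and -0.12), and with 1 library left out Psmb5 reached 0.16, Psmb6 0.12 and Psmb7 0.22 (without RCE replicate 1). Psmb5 was also below 0 with array weights (-0.007) and without RCE replicate 3 (-0.023), and Psmb7 without RCE replicate 2 (-0.053) or 3 (-0.046). The log2 ratio of Psmb9 to Psmb6 was -0.01 with a pseudocount of 1; with 1 library left out the ratios differed by -0.86 to -0.25 for Psmb8, 0.10 to 0.81 for Psmb9 and 0.10 to 0.37 for Psmb10. The cause of these shifts was not tested, apart from the filter, which removed genes. Psmb8, Psmb9 and Nlrc5, under 0.4 FPKM, were left untested, and the pseudocount shrinks their changes.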
